A study of Mus musculus with 10 samples.

Results

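The genes described here are 45 cell cycle and DNA replication genes, taken by name from the 21729 protein-coding genes measured in mouse digit tip blastemas. They were listed by name, with earlier results of these data known, and all 45 were found in the files. By their textbook roles, 28 were grouped as mitotic, the regulators of growth and mitotic entry among them. The other 17 were grouped under the control and execution of DNA replication. Each of 10 RNA-seq libraries pooled blastema tissue from 6 amputated central digits of the hindlimb, from mice of mixed CD1 and C57Bl/6 background. Tissue came from wild type mice or from ΔLARM1/2 mutants, which lack LARM1 and LARM2, enhancers through which the limb expresses Lmx1b, the homeobox gene known for making the dorsal side of the limb. Digits were collected 12 days after amputation, when the mice were 33 days old, or 14 days after, at 35 days old (12 and 14 dpa). Wild type is represented by 2 libraries and the mutants by 3 on either day. No label says how many animals gave the digits of a library, so p-values rest on library-to-library spread, part of which may be technical.

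A dividing cell copies its DNA once in S phase and separates the copies in M phase. Entry into S phase is set by cyclin E and the E2F transcription factors, which drive genes for origin licensing, the MCM helicase and nucleotide supply. Genes for G2 and M phase are transcribed later in the cycle, under B-Myb, FoxM1 and the MuvB complex, which acts at CHR elements and often beside CCAAT boxes. The digit tip blastema is a mass of proliferating cells that covers the amputated bone and rebuilds the tip. The RNA level of these genes in bulk tissue therefore follows how many cells are cycling and in which phase, and in bulk samples fewer cells of a type and less RNA per cell cannot be told apart.

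Libraries held 69998104 to 101632364 expected counts, and 81.5% to 93.6% of them fell in protein-coding genes, lowest in wild type 14 dpa replicate 1. Lmx1b had 2.68 and 2.94 CPM (counts scaled to library size) in the wild type libraries at 12 dpa and 2.14 and 1.69 at 14 dpa, against 0.0278 to 0.336 in the 6 mutant libraries. Its genotype difference over both days was -3.98 on the log2 scale (adjusted p = 0.000406, edgeR), so every library, also mutant 14 dpa replicate 1, whose genotype tag reads wild type, had the Lmx1b level of the group in its title. Tissue markers differed between the genotypes as well. Of 10 blastema fibroblast markers, 9 were lower in mutants over both days (summed 15483 to 29495 CPM in wild type, 2236 to 8084 in mutants), as were 8 of 8 endothelial markers (193 to 232 CPM, 37.3 to 74.0 CPM) and 7 of 7 tested nail plate keratins and related genes (9815 to 26117 CPM, 93.6 to 568 CPM). Of 10 basal keratinocyte markers, 6 were higher in mutants and 1 was lower (10571 to 13500 CPM, 18031 to 23152 CPM). Of 5 tested neutrophil markers 4 were higher in mutants (9.0 to 20 CPM, 55.0 to 631 CPM), as were 5 of 5 melanocyte markers (0.970 to 1.24 CPM, 6.37 to 52.3 CPM). Lower in mutants were 4 of 5 osteoblast (177 to 376 CPM, 14.1 to 115 CPM), 3 of 4 tested chondrocyte (267 to 393 CPM, 189 to 284 CPM) and 4 of 6 macrophage markers (54.2 to 71.8 CPM, 29.8 to 86.7 CPM), the summed levels of the last 2 lists overlapping between genotypes. Of all genes tested, edgeR called 21.5% higher and 22.2% lower in mutants over both days. The part of these markers in the members' values was not tested.

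Few cell cycle genes were called for genotype when both days were pooled in 1 contrast. Of the 45 members, 1 rose in mutants, 0 fell and 44 did not pass an adjusted p of 0.05 (edgeR quasi-likelihood test, Benjamini-Hochberg adjustment over 20216 genes). Over all genes tested, 21.5% were called higher and 22.2% lower in the same comparison. The median log2 fold change of the members was -0.02, beside 0.02 for all genes tested, and 44 members lay within 0.5 of 0 on the log2 scale, beside 54.6% of all genes tested. Without correction, 2 members had a p under 0.05, both higher, beside 52.6% of all genes in either direction. DESeq2 called 2 higher and 0 lower, beside 23.5% and 23.6% of all genes. The median differed in sign between roles, at -0.07 for the 28 mitotic and 0.20 for the 17 replication members.

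The summed level of the 45 members was also read in each library. It was 931 and 1314 CPM in wild type and 1713, 1068 and 1925 CPM in mutants at 12 dpa. At 14 dpa it was 843 and 1199.8 CPM in wild type and 634, 648 and 1001 CPM in mutants. By CPM, the 2 highest of the 10 libraries were thus mutants of the earlier day and the 2 lowest were mutants of the later day. The wild type libraries lay between, and the genotypes overlapped on both days. The low end depended on the scaling. By summed TPM the lowest library was wild type 14 dpa replicate 1 (186), below mutant 14 dpa replicates 1 and 2 (203 and 200). All protein-coding genes together held 276947 and 335670 TPM in wild type at 14 dpa and 420085 to 494344 in mutants. At 12 dpa they held 423365 and 494992 TPM in wild type, so TPM levels depend on a protein-coding total that differed between groups. As a share of protein-coding TPM, mutant 14 dpa replicates 1 and 2 were again the lowest (0.0410% and 0.0476%, beside 0.0670%). The members shared an order of libraries within a group. Mutant 12 dpa replicate 2 was the lowest of its group for 44 members, mutant 14 dpa replicate 3 the highest for 44, wild type 12 dpa replicate 2 the higher for 43 and wild type 14 dpa replicate 2 the higher for 42. Since the members vary together between libraries of 1 group, they are not separate tests of a difference between groups.

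**Figure D1:**
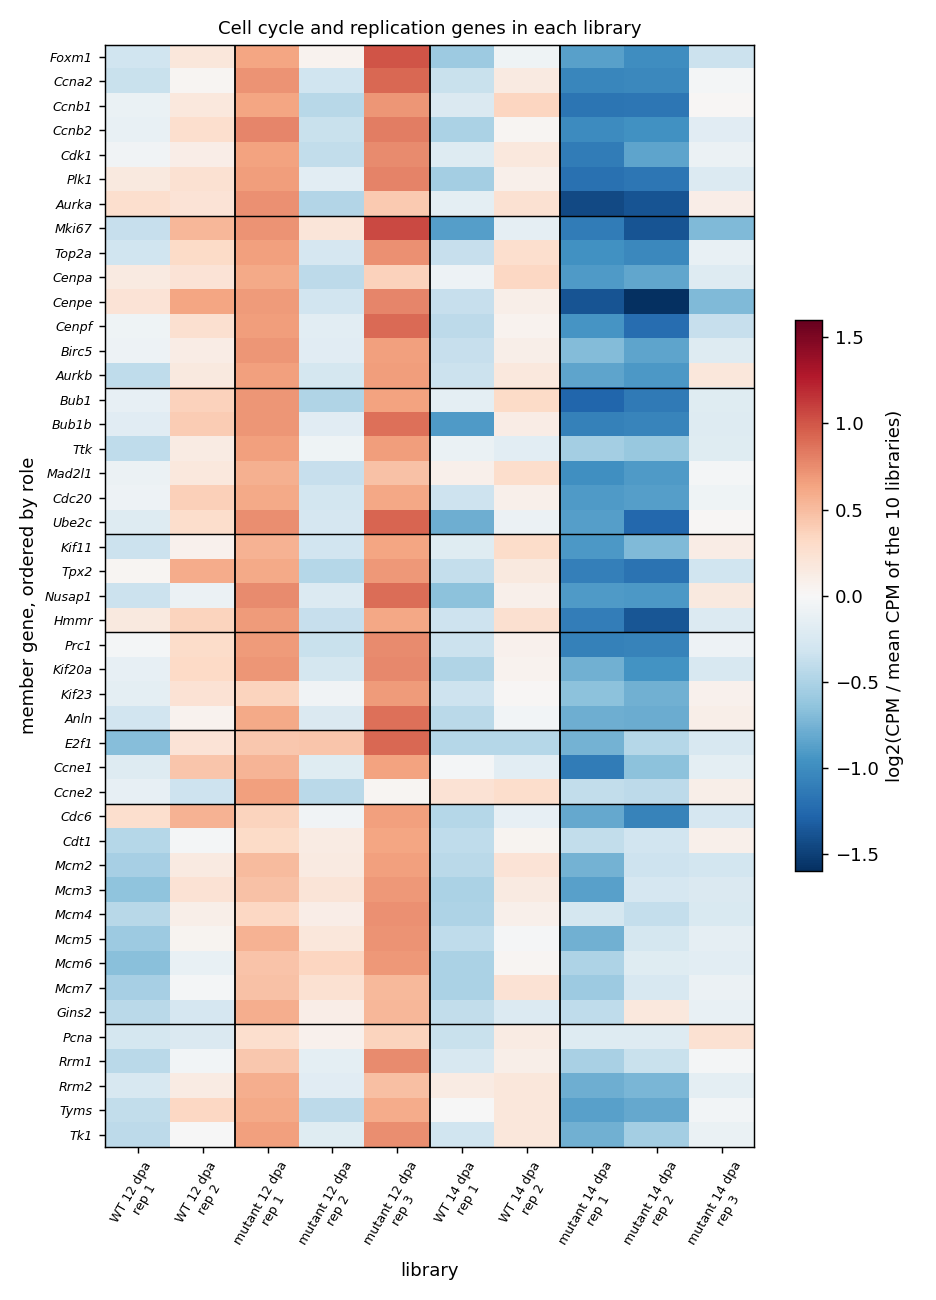
Colour gives the log2 ratio of each member's CPM to its mean over the 10 libraries; rows are the 45 genes ordered by role with lines between roles, and columns are libraries with lines between groups. Mutant 12 dpa replicates 1 and 3 are red across nearly all rows and mutant 14 dpa replicates 1 and 2 are blue, with mutant 12 dpa replicate 2 and mutant 14 dpa replicate 3 near the wild type libraries for most mitotic genes.

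**Figure D2:**
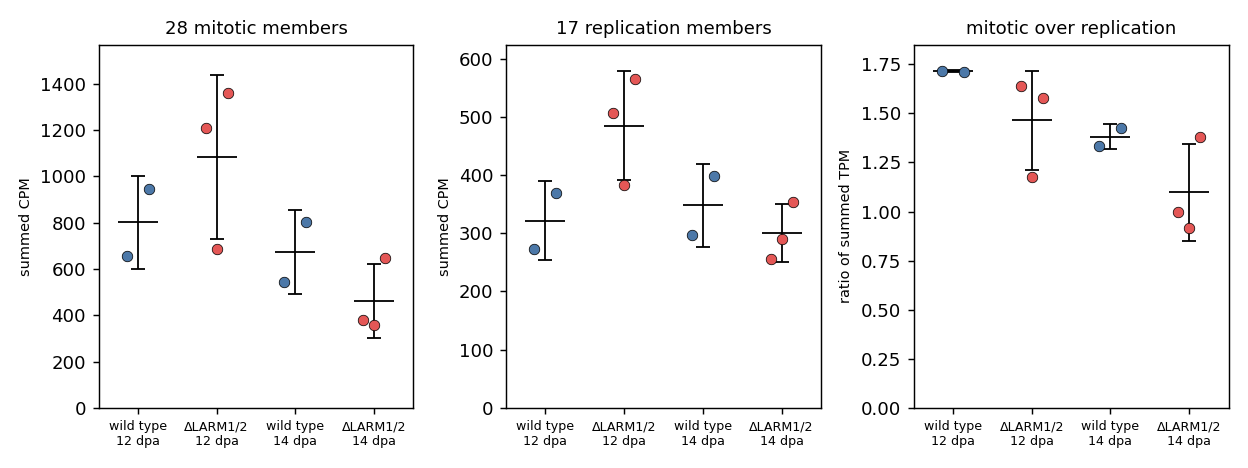
Points are libraries, blue for wild type and red for ΔLARM1/2, with the group mean and SD in black; the left and middle panels give summed CPM of the 28 mitotic and 17 replication members, and the right panel the ratio of their summed TPM. The mutant 12 dpa libraries span 685 to 1360 CPM for the mitotic members and the mutant 14 dpa libraries 357 to 648 CPM, and the ratio runs from 0.915 to 1.72.

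On each day taken alone, the genotype difference had opposite signs. At 12 dpa, 44 of 45 members were fitted higher in mutants, with a median of 0.43 on the log2 scale, and at 14 dpa 43 of 45 were fitted lower, with a median of -0.45. In all, 42 members had a fitted value above 0 on the first day and below 0 on the second. Few of these differences passed the test. At 12 dpa, 2 members rose in mutants, 0 fell and 43 did not pass, where 7.18% of all genes tested were called higher and 9.34% lower. At 14 dpa, 0 rose, 1 fell and 44 did not pass, where 16.1% of all genes were called higher and 17.2% lower. The members called higher at 12 dpa were 4.44% with edgeR and 11.1% with DESeq2, beside 7.18% and 11.6% of all genes. Those called lower at 14 dpa were 2.22% with edgeR, beside 17.2%. DESeq2 called 3 of the 45 members lower on that day, beside 3969 of 20216 genes. The members' standard errors were also larger, with a median of 0.34 on each day beside 0.27 for all genes. On the deposited TPM values (log2 of TPM + 1) the median of all genes itself lay at 0.16 at 12 dpa and 0.10 at 14 dpa, and 30 members were below 0 at 14 dpa with 6 above the median of all genes, so the sign at 14 dpa turned for some members with the scaling. With mutant 14 dpa replicate 1 counted as wild type, as its tag reads, the median at 14 dpa was -0.11 with 14 members above 0. The change of the genotype difference between days was itself tested: all 45 members had a fitted difference below 0, with a median of -0.87, but edgeR called 0 of them (lowest adjusted p = 0.544), 9 had an unadjusted p under 0.05, and DESeq2 and limma-voom called 0. In that comparison 8.72% of all genes had an unadjusted p under 0.05, and edgeR called 0%, DESeq2 0.237% and limma-voom 0%.

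**Figure D3:**
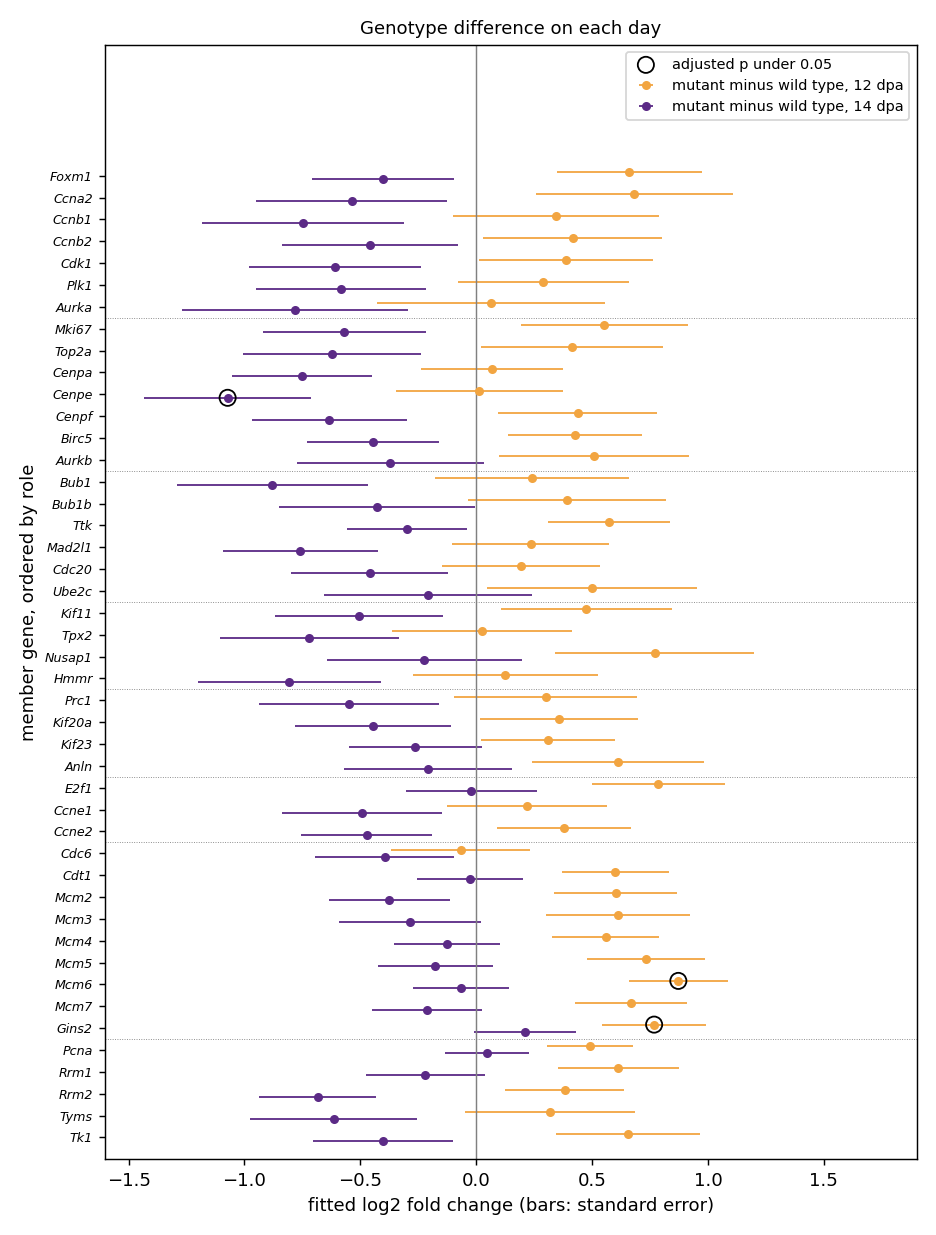
Points are fitted log2 fold changes, mutant minus wild type, at 12 dpa (orange) and 14 dpa (purple), with standard errors as bars, for the 45 members ordered by role; black circles mark an adjusted p under 0.05. Only Mcm6 and Gins2 at 12 dpa and Cenpe at 14 dpa are circled, while the orange points lie right of 0 for 44 members and the purple ones left of 0 for 43.

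The days were also compared within each genotype. From 12 to 14 dpa, all 45 members were fitted lower in mutants, with a median of -0.97 on the log2 scale, beside -0.02 for all genes. Of the 45, 22 were more than 2-fold lower, a share that was not counted for all genes. In wild type the members' median was -0.04, with 17 members fitted above 0 (lowest adjusted p = 0.617, edgeR). The wild type value had no stable sign: on log2 of TPM + 1 the median was -0.35 with 0 members above 0 (-0.18 for all genes), and on TPM rescaled over protein-coding genes it was 0.13 with 30 above 0 (0.15 for all genes). It was -0.27 without wild type 12 dpa replicate 1, -0.24 without wild type 14 dpa replicate 2, 0.12 without wild type 12 dpa replicate 2 and 0.14 without wild type 14 dpa replicate 1. With the tagged library counted as wild type it was -0.30. edgeR called 0 members in mutants (lowest adjusted p = 0.0883), 43 had an unadjusted p under 0.05, and limma-voom called 0. DESeq2 called 33 lower and 0 higher. These counts stand beside 0.0346% of all genes called by edgeR in either direction, 18.8% with an unadjusted p under 0.05, 0.00989% called by limma-voom, and 3.87% called lower and 3.46% higher by DESeq2. The 3 mutant libraries of each day did not overlap, with 14 dpa lower, for 17 members, 8 mitotic and 9 of replication, where 11.8% of all genes did the same. In wild type, edgeR called 0 members, 0 had an unadjusted p under 0.05 and DESeq2 and limma-voom called 0. Of all genes, edgeR called 0%, DESeq2 0.257% and limma-voom 0%, and 8.18% had an unadjusted p under 0.05. Whether the day difference differed between genotypes is the test given above, in which 0 members passed. The wild type libraries of the days did not overlap for 3 members that were lower at 14 dpa, beside 22.4% of all genes, and for 2 that were higher, beside 20.1%.

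Between the days the mutants also differed in a marker list. Of 5 tested neutrophil markers, 1 fell from 12 to 14 dpa in mutants, and the list summed to 321 to 631 CPM at 12 dpa and 55.0 to 94.3 CPM at 14 dpa. In wild type it summed to 13.7 to 20 CPM at 12 dpa and 9.0 to 13.8 CPM at 14 dpa. The summed levels of the genotypes did not overlap on either day, and 4 of the 5 markers were higher in mutants at 12 dpa and 3 at 14 dpa. Of all genes, edgeR called 7.18% and 16.1% higher in mutants on these days, and 0.0346% between days in mutants. Most of that sum was S100a8 and S100a9, which stressed keratinocytes also express, while the defining marker Ly6g had 0 counts in 5 of the 10 libraries. Fibroblast markers in the mutants did not pass between days (0 of 10), nor did basal keratinocyte (0 of 10) or endothelial markers (0 of 8). The 7 nail plate genes summed to 259 to 568 CPM in mutants at 12 dpa and 93.6 to 127 CPM at 14 dpa, of which edgeR called 0. The part of the neutrophil and nail plate lists in the members' differences was not tested.

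RefSeq promoter windows (build GRCm38.p6, 250 bases before to 50 after the start) matched 37 of the 45 members in 39 windows; Gins2, Foxm1, Ccne2, Tpx2, Aurkb, Ccna2, Kif20a and Mcm4 had none. As a description only, the windows were searched on both strands for 3 motifs, counting overlapping matches separately. The CHR element was taken as TTTGAA, or with C in the third position as TTCGAA. The CCAAT box was taken as the letters of its name. The E2F element was taken as any of TTTCGCGC, TTTGGCGC, TTTCCCGC and TTTGCCGC. A CHR element was in 79.2% of 24 mitotic windows and in 13.3% of 15 replication windows, beside 19.2% of all 32851 windows. A CCAAT box was in 83.3% and 60% of them, beside 37.4% of all windows. An E2F element was in 4.17% of mitotic and 40% of replication windows, beside 2.26% of all windows. Both a CHR element and a CCAAT box were in 75% of mitotic windows, beside 7.52% of all windows. A match is a description of the letters and no evidence of binding. Shown 5′ to 3′ are Mki67 and Top2a, mitotic genes with several of both elements, Cenpe, the mitotic gene called at 14 dpa, and Mcm6, called at 12 dpa (Gins2, also called then, has no window), with every motif match in capitals. Mki67 lies at chr7:135716330-135716629 on the minus strand, Top2a at chr11:99024140-99024439 on the minus strand, Cenpe at chr3:135212313-135212612 on the plus strand and Mcm6 at chr1:128359656-128359955 on the minus strand.
Mki67: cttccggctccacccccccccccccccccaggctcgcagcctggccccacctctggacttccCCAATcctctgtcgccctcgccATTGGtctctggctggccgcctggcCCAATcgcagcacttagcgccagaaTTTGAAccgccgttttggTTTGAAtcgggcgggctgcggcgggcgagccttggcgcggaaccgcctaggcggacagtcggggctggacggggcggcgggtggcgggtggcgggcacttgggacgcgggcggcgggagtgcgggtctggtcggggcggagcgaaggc
Top2a: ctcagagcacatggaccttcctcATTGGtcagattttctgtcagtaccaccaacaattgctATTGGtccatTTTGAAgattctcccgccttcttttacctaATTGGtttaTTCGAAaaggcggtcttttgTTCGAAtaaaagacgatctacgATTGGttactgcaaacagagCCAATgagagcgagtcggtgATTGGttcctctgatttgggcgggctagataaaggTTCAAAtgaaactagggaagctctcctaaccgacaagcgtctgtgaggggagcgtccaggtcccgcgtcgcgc
Cenpe: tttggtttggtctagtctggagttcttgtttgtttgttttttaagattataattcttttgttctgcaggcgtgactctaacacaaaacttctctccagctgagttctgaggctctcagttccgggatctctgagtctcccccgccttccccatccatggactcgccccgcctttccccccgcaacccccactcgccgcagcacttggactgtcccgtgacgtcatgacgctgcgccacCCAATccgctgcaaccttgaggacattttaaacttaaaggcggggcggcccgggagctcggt
Mcm6: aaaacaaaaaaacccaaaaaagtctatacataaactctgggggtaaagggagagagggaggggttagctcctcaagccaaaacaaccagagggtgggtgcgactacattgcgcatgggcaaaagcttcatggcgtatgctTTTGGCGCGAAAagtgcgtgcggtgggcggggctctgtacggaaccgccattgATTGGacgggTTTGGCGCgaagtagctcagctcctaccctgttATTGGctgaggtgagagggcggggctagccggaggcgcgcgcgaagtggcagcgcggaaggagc
In these letters Mki67 held 2 CHR elements and 3 CCAAT boxes, Top2a 4 and 6, and Cenpe 0 and 1. Mcm6 held 3 E2F elements, 2 of them overlapping, and 2 CCAAT boxes.

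**Figure D4:**
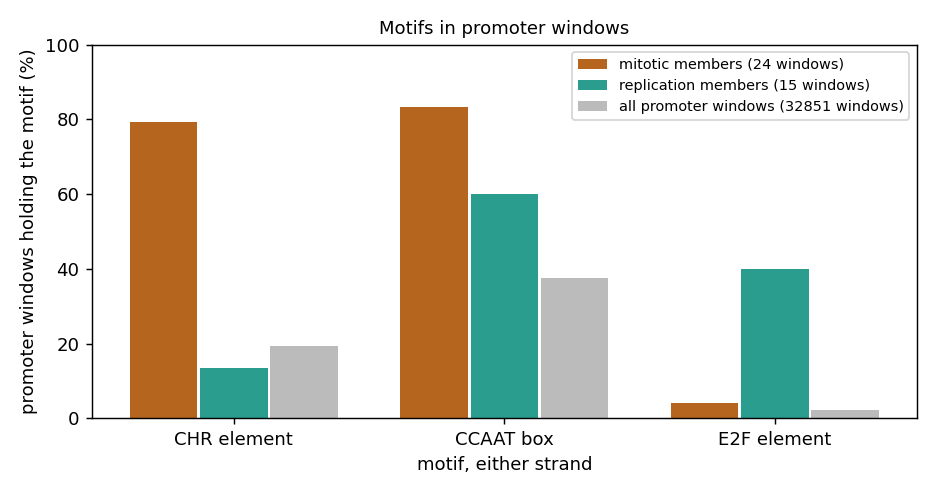
Bars give the percentage of RefSeq promoter windows that hold each motif on either strand, for 24 mitotic windows (brown), 15 replication windows (green) and all 32851 windows (grey). The CHR element stands at 79.2% in mitotic windows and the E2F element at 40% in replication windows.

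Regulators of growth and mitotic entry were Foxm1, a transcription factor for mitotic genes, Ccna2, Ccnb1 and Ccnb2, the A and B cyclins, their kinase Cdk1, and the mitotic kinases Plk1 and Aurka. None of the 7 passed in any genotype comparison. Foxm1 had 15.5 and 21.8 CPM in wild type and 29.7, 20.0 and 38.6 CPM in mutants at 12 dpa, then 12.8 and 18.3 CPM in wild type and 10.5, 9.68 and 15.2 CPM in mutants at 14 dpa. The genotypes overlapped on both days, while all 3 mutant libraries of the earlier day lay above those of the later day (difference -1.32 ± 0.28, standard error; adjusted p = 0.092, edgeR; adjusted p = 0.000347, DESeq2). Aurka, which matures the spindle poles, had the smallest p of the group over both days, at -0.36 ± 0.35 (adjusted p = 0.426, edgeR). Its values were 8.0 and 7.74 CPM in wild type and 11, 4.79 and 8.90 CPM in mutants at 12 dpa, and 5.97 and 7.84 CPM in wild type and 2.43, 2.54 and 7.12 CPM in mutants at 14 dpa. Mutant 12 dpa replicate 2 and mutant 14 dpa replicates 1 and 2 lay below every wild type library, and the genotypes overlapped on both days. Ccnb1, the main mitotic cyclin, had 19.1 and 23.2 CPM in wild type and 32, 15.1 and 33.5 CPM in mutants at 12 dpa, and 17.6 and 26.2 CPM in wild type and 9.14, 9.24 and 20.8 CPM in mutants at 14 dpa. The genotypes overlapped on both days, and the difference over both was -0.20 ± 0.31 (adjusted p = 0.627, edgeR). Ccnb2 was nearest to 0 in the group, at -0.02 ± 0.27 (adjusted p = 0.957, edgeR).

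The chromosome and kinetochore genes gave the lower call at 14 dpa. Cenpe, the kinetochore kinesin that captures microtubule plus ends, had 20.8 and 27.6 CPM in wild type and 28.5, 14.4 and 30.4 CPM in mutants at 12 dpa. At 14 dpa it had 13.8 and 19.0 CPM in wild type and 6.81, 5.71 and 10.9 CPM in mutants. The genotypes overlapped at 12 dpa and did not at 14 dpa, where the difference was -1.07 ± 0.36 on the log2 scale (adjusted p = 0.0481, edgeR). Over both days it was -0.53 ± 0.25 (adjusted p = 0.121, edgeR). The 14 dpa call was lost when any of 7 libraries was left out: wild type 12 dpa replicates 1 and 2, mutant 12 dpa replicate 1, wild type 14 dpa replicates 1 and 2, and mutant 14 dpa replicates 1 and 2 (highest adjusted p = 0.207, without wild type 14 dpa replicate 2). It was also lost with the tagged library counted as wild type (-0.67, adjusted p = 0.629). At 14 dpa the mutant libraries lay below the wild type ones for 8 members in all (Cenpa, Cenpe, Bub1, Ttk, Mad2l1, Ccne2, Rrm2 and Tyms), where 31.6% of all genes did so. Cenpa, the centromeric variant of histone H3, had 12.8 and 13.5 CPM in wild type and 17.7, 8.68 and 15.1 CPM in mutants at 12 dpa, and 11 and 14.6 CPM in wild type and 6.22, 6.50 and 10.1 CPM in mutants at 14 dpa. Its difference was -0.75 ± 0.30 at 14 dpa (adjusted p = 0.0811 with edgeR and 0.0437 with DESeq2). Over both days it was -0.34 ± 0.21 (adjusted p = 0.221, edgeR). Mki67, the proliferation antigen that coats mitotic chromosomes, had 139 and 259.5 CPM in wild type and 297, 206 and 375 CPM in mutants at 12 dpa, and 97.6 and 163 CPM in wild type and 83.2, 69.4 and 111 CPM in mutants at 14 dpa. It had the smallest adjusted p of any member for the day difference in mutants, -1.74 ± 0.33 (adjusted p = 0.0883, edgeR; adjusted p = 6.16e-06, DESeq2), and its highest mutant value at 14 dpa was below its lowest at 12 dpa. Between genotypes it was the nearest of its group to 0 over both days, at -0.01 ± 0.25 (adjusted p = 0.983, edgeR). In wild type its day difference was -0.62 ± 0.39 (adjusted p = 0.699, edgeR).

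**Figure D5:**
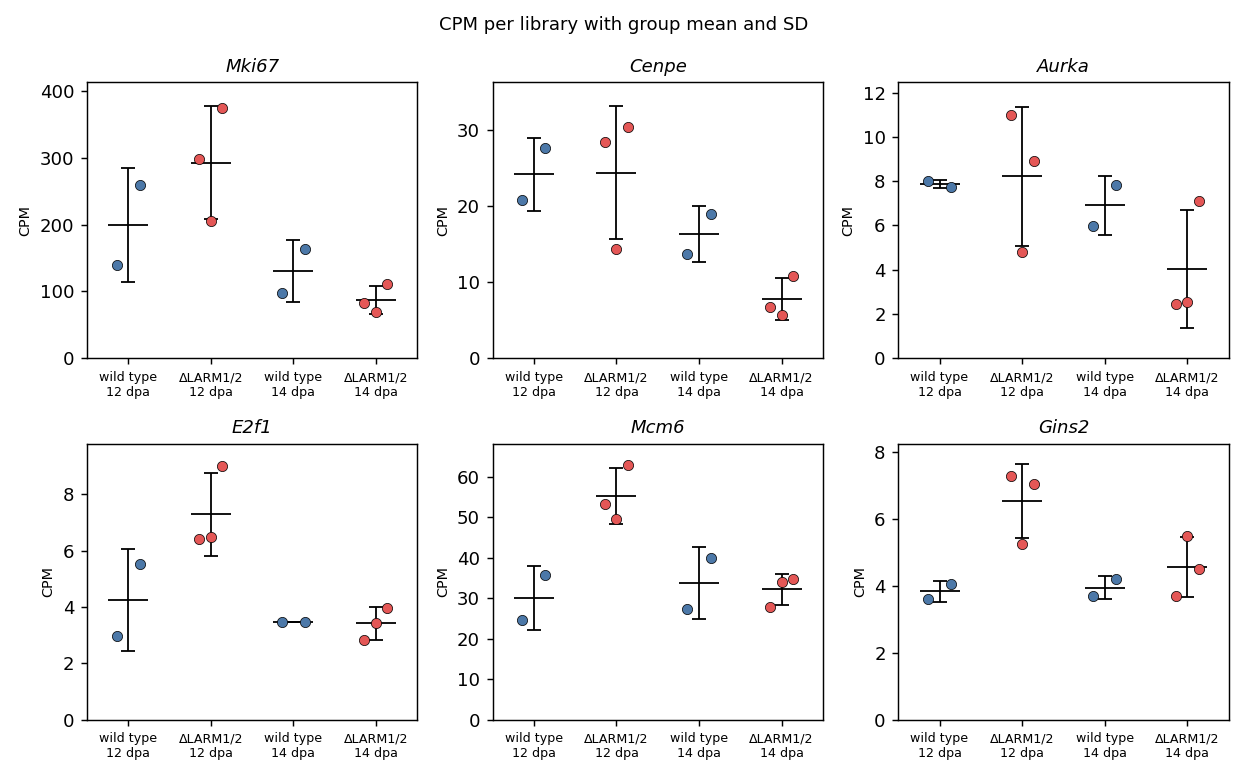
Each panel gives CPM per library for 1 gene, blue for wild type and red for ΔLARM1/2, with group mean and SD in black; the axes start at 0. Cenpe at 14 dpa and E2f1, Mcm6 and Gins2 at 12 dpa are the panels and days in which the genotypes do not overlap, and Mki67 in mutants runs from 206 to 375 CPM at 12 dpa and from 69.4 to 111 CPM at 14 dpa.

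The spindle checkpoint and anaphase genes include the checkpoint kinases Bub1 and Ttk, their partners Bub1b and Mad2l1, and Cdc20 and Ube2c, which activate and serve the anaphase promoting complex. None of the 6 passed in a genotype comparison. Bub1 had 6.27 and 8.64 CPM in wild type and 2.90, 3.17 and 6.11 CPM in mutants at 14 dpa, where the groups did not overlap. At 12 dpa it had 6.38 and 9.01 CPM in wild type and 11.4, 4.98 and 10.9 CPM in mutants, which overlapped. Its difference was -0.88 ± 0.41 at 14 dpa (adjusted p = 0.127, edgeR). Mad2l1, which inhibits Cdc20 until kinetochores are attached, had 13.8 and 15.8 CPM in wild type and 6.59, 6.94 and 12.8 CPM in mutants at 14 dpa, and 12.2 and 14.7 CPM in wild type and 19.3, 10.1 and 18.1 CPM in mutants at 12 dpa. The groups did not overlap at 14 dpa (-0.76 ± 0.33, adjusted p = 0.107, edgeR) and did at 12 dpa. Over both days Bub1 lay at -0.32 ± 0.29 (adjusted p = 0.403, edgeR) and Mad2l1 at -0.26 ± 0.24 (adjusted p = 0.397, edgeR). Bub1b was nearest to 0 over both days, at -0.02 ± 0.30 (adjusted p = 0.967, edgeR).

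Among the 4 spindle motors and microtubule proteins and the 4 cytokinesis genes, 0 passed a genotype comparison. Tpx2, which activates Aurora A on the spindle, had 21.8 and 32.3 CPM in wild type and 32.6, 15.6 and 34.5 CPM in mutants at 12 dpa, and 16.4 and 23.7 CPM in wild type and 9.96, 9.44 and 17.2 CPM in mutants at 14 dpa (-0.35 ± 0.27 over both days, adjusted p = 0.331, edgeR). Hmmr, a hyaluronan receptor that also binds the spindle, had 13.9 and 15.9 CPM in wild type and 20, 9.63 and 19.1 CPM in mutants at 12 dpa, and 9.89 and 15 CPM in wild type and 5.78, 4.84 and 10.7 CPM in mutants at 14 dpa (-0.34 ± 0.28, adjusted p = 0.35, edgeR). Both genes overlapped between genotypes on both days, through mutant 12 dpa replicate 2 and mutant 14 dpa replicate 3. Kif11, the kinesin that pushes the poles apart, lay at -0.02 ± 0.26 over both days (adjusted p = 0.969, edgeR). Anln, the anillin scaffold of the contractile ring, was the cytokinesis gene with the smallest p over both days, at 0.20 ± 0.26 (adjusted p = 0.553, edgeR). Its mutant libraries had 69.9, 39.0 and 84.7 CPM at 12 dpa and 26.6, 26.4 and 49.0 CPM at 14 dpa, and its wild type libraries 37.0 and 47.5 CPM, then 34.1 and 44.3 CPM. The genotypes overlapped on both days. Prc1, which bundles the microtubules of the spindle midzone, had 28.7 and 35.9 CPM in wild type and 47, 22.9 and 49.5 CPM in mutants at 12 dpa, and 23.2 and 30.9 CPM in wild type and 13.9, 14 and 27.7 CPM in mutants at 14 dpa (-0.12 ± 0.28, adjusted p = 0.739, edgeR). Kif23, a motor of the midzone, was nearest to 0 at 0.02 ± 0.20 (adjusted p = 0.935, edgeR).

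The replication genes held the calls at 12 dpa. Mcm6, a subunit of the replicative helicase, had 24.6 and 35.8 CPM in wild type and 53.3, 49.5 and 62.9 CPM in mutants at 12 dpa. At 14 dpa it had 27.4 and 40.0 CPM in wild type and 27.7, 34 and 34.8 CPM in mutants. All mutant libraries lay above both wild type ones on the first day, at 0.87 ± 0.21 on the log2 scale (adjusted p = 0.0246, edgeR; adjusted p = 0.00151, DESeq2), and inside their range on the second (-0.07 ± 0.21). The 12 dpa call was lost without wild type replicate 1 (0.63, adjusted p = 0.149) and without mutant replicate 3 (0.79, adjusted p = 0.0533) of that day. Over both days Mcm6 missed the threshold at 0.40 ± 0.15 (adjusted p = 0.0509, edgeR).

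Gins2, a subunit of the GINS complex that completes the active helicase, was the 1 member called over both days, at 0.49 ± 0.16 (adjusted p = 0.0302, edgeR). It had 3.61 and 4.06 CPM in wild type and 7.28, 5.25 and 7.05 CPM in mutants at 12 dpa (0.77 ± 0.22, adjusted p = 0.0448), and 3.71 and 4.19 CPM in wild type and 3.70, 5.49 and 4.51 CPM in mutants at 14 dpa (0.21 ± 0.22, adjusted p = 0.485). The genotypes overlapped at 14 dpa only. The 12 dpa call was lost when any of 7 libraries was left out and kept without mutant 12 dpa replicate 2 and mutant 14 dpa replicates 1 or 2 (adjusted p from 0.0313 to 0.191). It was also lost with the tagged library counted as wild type (adjusted p = 0.164). The call over both days was lost when any of 8 libraries was left out. It was kept without mutant 12 dpa replicate 2 or mutant 14 dpa replicate 1. Leaving out wild type and mutant 14 dpa replicate 1 together also lost it, though both had the Lmx1b level of their titled group. Mcm2, another helicase subunit with the largest p of its group over both days (0.11 ± 0.19, adjusted p = 0.648, edgeR), fitted at 0.60 ± 0.27 at 12 dpa and -0.38 ± 0.26 at 14 dpa and passed on neither day.

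At 12 dpa the mutant libraries lay above both wild type ones for 8 members (E2f1, Cdt1, Mcm4, Mcm5, Mcm6, Mcm7, Gins2 and Pcna), where 25.7% of all genes did so. All 8 belong to the 17 replication members, and 0 of the 28 mitotic members did the same. Yet all 28 mitotic members were fitted higher in mutants at 12 dpa (median 0.39, beside 0.60 for the replication members). Mutant 12 dpa replicate 2 was the lowest of its group for 28 of 28 mitotic and 16 of 17 replication members. Its median log2 ratio to the rest of the group was -0.99 for the mitotic and -0.45 for the replication members. DESeq2 called 5 of the 8 non-overlapping members higher at 12 dpa (E2f1, Mcm5, Mcm6, Mcm7 and Gins2). That is 11.1% of the 45 members beside 11.6% of all genes. E2f1, the transcription factor of S phase genes, had 2.96 and 5.51 CPM in wild type and 6.41, 6.49 and 9.0 CPM in mutants at 12 dpa (0.79 ± 0.29, adjusted p = 0.0867, edgeR), and 3.47 and 3.46 CPM in wild type and 2.83, 3.45 and 3.97 CPM in mutants at 14 dpa. Over both days E2f1 lay at 0.38 ± 0.20 (adjusted p = 0.147, edgeR). Its genotypes did not overlap at 12 dpa and did at 14 dpa. Ccne1, a cyclin E, had 2.89 and 4.55 CPM in wild type and 4.87, 2.91 and 5.20 CPM in mutants at 12 dpa, and 3.27 and 2.97 CPM in wild type and 1.54, 2.12 and 3.0 CPM in mutants at 14 dpa (-0.14 ± 0.24, adjusted p = 0.675, edgeR). It overlapped on both days, and the other cyclin E, Ccne2, lay at -0.05 ± 0.20 (adjusted p = 0.87, edgeR). Pcna, the sliding clamp, was the most abundant member per length, at 34.4 TPM over the 10 libraries, and Cdc6, a licensing factor, the least at 0.763 TPM. Pcna had 44.8 and 46.2 CPM in wild type and 65.4, 57.0 and 69.4 CPM in mutants at 12 dpa, and 42.7 and 59.8 CPM in wild type and 47.1, 47.3 and 64.7 CPM in mutants at 14 dpa. Its difference over both days was 0.27 ± 0.13 (adjusted p = 0.116, edgeR), and its day difference in mutants was the smallest of the 45, -0.27 ± 0.16 (adjusted p = 0.402, edgeR). Rrm1, the large subunit of ribonucleotide reductase, had 47.8 and 62 CPM in wild type and 86.4, 57.5 and 108 CPM in mutants at 12 dpa, and 53.6 and 68.6 CPM in wild type and 44.8, 50 and 62.7 CPM in mutants at 14 dpa (0.20 ± 0.18, adjusted p = 0.408, edgeR). It overlapped between genotypes on both days, and Tyms, thymidylate synthase, lay at -0.15 ± 0.26 (adjusted p = 0.665, edgeR).

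The balance of mitotic to replication RNA also differed between libraries. The ratio of summed TPM was 1.72 and 1.71 in wild type and 1.64, 1.17 and 1.58 in mutants at 12 dpa, and 1.34 and 1.43 in wild type and 0.999, 0.915 and 1.38 in mutants at 14 dpa. Both wild type libraries of 12 dpa lay above every other library, and the genotypes overlapped at 14 dpa. Mutant 12 dpa replicate 2, which was low for 28 of 28 mitotic members within its group, had the lowest ratio of that day. No test was run on the ratio.

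The wider pathway was described with 243 other tested genes from 9 lists. Over both days 37 rose in mutants, 13 fell and 193 did not pass, with a median of 0.08. That is 15.2% higher and 5.35% lower, beside 21.5% and 22.2% of all genes. At 12 dpa 22 rose and 3 fell (9.05% and 1.23%, beside 7.18% and 9.34% of all genes), and at 14 dpa 17 rose and 14 fell (7.0% and 5.76%, beside 16.1% and 17.2%). Among 18 G1 cyclins, kinases and inhibitors, 4 rose and 3 fell. Cdkn2c, which inhibits Cdk4 and Cdk6, rose by 0.64 (adjusted p = 0.00276, edgeR), and Ccnd1 by 0.54, while Ccnd2, another D cyclin, fell by 0.43 and the phosphatase gene Cdc25a by 0.46. Cdkn2a fell by 1.91 from a low level (mean 0.295 CPM over the 10 libraries). The inhibitors Cdkn1a (0.06 ± 0.10), Cdkn1b (0.02 ± 0.12) and Cdkn1c (-0.03 ± 0.21) did not pass, nor did the D cyclin Ccnd3 (0.18 ± 0.16). Of 24 pocket protein, E2F, DREAM and Myc genes, 5 rose and 3 fell: Tfdp2 rose by 0.37 and E2f4 by 0.35, and the repressor E2f7 fell by 0.98 and E2f5 by 0.65. Rb1, the retinoblastoma pocket protein, was among those that rose, by 0.27 (adjusted p = 0.0437, edgeR), while Myc (0.41 ± 0.22) and Trp53 (-0.04 ± 0.13) did not pass.

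Of 33 polymerase, primase, clamp loader and ligase genes, 8 rose and 0 fell over both days, a share of 24.2% near the 21.5% of all genes called higher. At 12 dpa 8 rose as well, beside 7.18% of all genes, and at 14 dpa 0 rose and 1 fell. Rfc3, a clamp loader subunit, rose by 0.67 (adjusted p = 0.001, edgeR) and Dnmt1, the maintenance DNA methyltransferase, by 0.57. Of 22 origin recognition and firing genes, 4 rose (Gins4 by 0.44, Mcmbp by 0.33) and Dbf4, the activator of the Cdc7 kinase, fell by 0.52. Of 20 condensin and cohesin genes, 5 rose, or 25% beside the same 21.5%, among them the cohesin subunit Rad21 by 0.32, and Pds5b fell by 0.29. Ncaph2, a condensin II subunit, had 62.3 and 58.2 CPM in wild type and 93.4, 87.3 and 93.1 CPM in mutants at 12 dpa, and 63.7 and 61.3 CPM in wild type and 93.7, 89.2 and 94.7 CPM in mutants at 14 dpa. Its groups did not overlap on either day (0.58 ± 0.07 over both days, adjusted p = 0.000269, edgeR).

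Of 34 kinetochore genes 1 rose, Cenpi, by 0.84, and 0 fell. Of 46 other mitotic genes 1 rose, Pkmyt1, the kinase that holds Cdk1 inactive, by 0.59, and 0 fell. These shares, 2.94% and 2.17%, lay below the 21.5% of all genes called higher. Of 20 anaphase promoting complex and securin genes 3 rose and 3 fell (15% each way), with Espl1, the separase, rising by 0.84, Anapc5 rising by 0.39, and Cdc16 and Anapc10 each falling by 0.38. Of 26 p53 targets and damage checkpoint genes 6 rose and 2 fell, or 23.1% and 7.69%. Bbc3, which encodes the apoptosis inducer Puma, rose by 0.96 and Brca2 by 0.92, while Gadd45g fell by 1.98 and Bax by 0.29. The lists were chosen with earlier results of these data known, and no list was tested as a set.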

How the data were processed

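RNA from 10 blastema libraries was measured, in 4 groups taken from the titles. The authors deposited, per library, expected counts (not normalized, 13.9% not whole) and TPM (scaled by gene length to a fixed total) per the file headers, which have RSEM's column names. Tools listed in the submitters' processing notes, without role or order, are RSEM 1.3.0, STAR 2.7.8a and FastQC, with build GRCm39. Libraries were made with a stranded total RNA kit, per the labels' protocols; whether counting used strand is not given in the sources used. Mutant 14 dpa replicate 1 carries a wild type genotype tag and was treated as mutant, as its title and description say. For wild type at 14 dpa the replicate numbers in titles and descriptions are swapped, and those of the titles were used. Wild type and mutant replicate 1 of 14 dpa are called doubted below, though both had the Lmx1b level of their titled group.

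Expected counts were rounded and fitted with edgeR 4.0.16 (limma 3.58.1, R 4.3.3): filterByExpr (minimum count 10, minimum total 15) left 20216 genes, with TMM factors and 1 robust quasi-likelihood fit over all libraries without covariates. Contrasts were mutant minus wild type over both days, at 12 dpa and at 14 dpa, their difference, and 14 minus 12 dpa within each genotype. Standard errors are the absolute log2 fold change divided by the square root of F. Benjamini-Hochberg adjustment ran over the 20216 genes, and an adjusted p under 0.05 was a call. CPM uses TMM-scaled library sizes. Scripts were tested on simulated data. Alternatives were DESeq2 1.42.0, limma-voom, limma on log2 TPM, other scalings and filters, sex (male from 500 Y-linked counts), replicate blocks and leaving out libraries. The lowest expected count of a member in any library was 116.

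The 45 members, their roles and the pathway and marker lists were chosen with earlier results of these data known. In each role, the 2 members with the smallest and the 1 with the largest p over both days were named, and in each pathway list up to 2 called genes per direction with the largest fold change at a mean of 1 CPM or more, plus Cdkn1a, Cdkn1b, Cdkn1c, Cdkn2a, Ccnd1, Ccnd2, Ccnd3, Rb1, Myc and Trp53. Foxm1, Top2a, Rrm2 and genes named in counts were added after values were seen. The listed genes H2ax, Krt85 and Lin54 were not matched. Ccnb1, Ccnb2, Pcna and Tyms have named pseudogenes, so their reads may be split. Promoter windows are from RefSeq (GRCm38.p6), not the build of the files.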

Additional observations from a re-analysis of the deposited data

How the results depend on the processing

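Results over both days began from 1 member higher and 0 lower, at 12 dpa from 2 higher and 0 lower, at 14 dpa from 0 higher and 1 lower, and from 0 for the difference between days and for each genotype's day difference. Over both days, higher members numbered 2 with DESeq2, DESeq2 size factors and limma-voom, 5 with TPM at either pseudocount, and 0 with upper quartile factors, the strict filter (1 CPM in 5 libraries), protein-coding TPM, the tagged library in wild type and without both doubted 14 dpa libraries. At 12 dpa, higher members numbered 5 with DESeq2, 5 and 4 with TPM (pseudocount 1 and 0.1), 7 with protein-coding TPM, 1 with upper quartile factors, no filter and the strict filter, and 0 with the tagged library in wild type. At 14 dpa, lower members numbered 3 with DESeq2, 4 with protein-coding TPM, 2 with upper quartile factors, the strict filter and only the compared groups, and 0 with no filter, TPM at either pseudocount, sex as a covariate, the tagged library in wild type and without both doubted libraries. In mutants between days, DESeq2 called 33, TPM 1 and 3, and protein-coding TPM 6. Protein-coding TPM and leaving out both doubted libraries were chosen after seeing the data; the latter gave 3 higher at 12 dpa. Leaving out 1 library gave 0 to 2 higher and 0 to 2 lower over both days, 0 to 3 higher at 12 dpa, 0 to 8 lower at 14 dpa (8 without mutant 14 dpa replicate 3) and 0 elsewhere; the members' median stayed between 0.25 and 0.70 at 12 dpa, between -0.77 and -0.25 at 14 dpa and between -1.26 and -0.79 for days in mutants, and changed sign for days in wild type (-0.27 to 0.14) and over both days (-0.15 to 0.10). A replicate block gave 0 higher and 1 lower over both days, 1 higher at 12 dpa and 3 lower at 14 dpa. With the numbers of the descriptions it gave 0 higher and 2 lower, 0 and 8. The members' median with these blocks was 0.23 and 0.20 at 12 dpa, where 8 and 12 members were below 0. It was -0.69 and -0.67 at 14 dpa and -0.25 and -0.27 over both days. Without a block the medians were 0.43, -0.45 and -0.02. On log2 of TPM + 1 the median at 14 dpa was -0.17. Deviations from group means of libraries with the same title number correlated at -0.0416 to 0.0767 over all genes tested. The numbers were not taken as a pairing. With 2 wild type libraries per day their deviations mirror each other, so these correlations cannot decide whether libraries were paired. Of 651 recomputed fold changes of single members, 513 kept sign and side of the threshold, 46 lost the call, 18 gained one, and 74 changed sign without a call on either side; 0 changed sign with a call. The cause was not tested.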

Other observations

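Sex was read from Y-linked counts alone, and each group held 1 library read as female. The number of animals per library is not given, and a pool of both sexes would be read as male. The summed CPM of the 45 members was 931 in the female and 1314 in the male wild type library at 12 dpa, and 1199.8 in the female and 843 in the male at 14 dpa. In mutants the female library had 1713 CPM beside 1068 and 1925 in the males at 12 dpa, and 648 CPM beside 634 and 1001 in the males at 14 dpa. The female library was thus the lower of the wild type pair on one day and the higher on the other.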
